A study of Drosophila melanogaster with 12 samples.

Results

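Regenerating wing imaginal discs collected 25 h after the induction of apoptosis were compared with control discs of 15 h, in which no cell death had been induced, in Drosophila melanogaster larvae of the third instar. The comparison asks whether a younger control resembles discs whose development is delayed by damage. Its members are the genes with a value above 0 in both groups, which are 8735 of the 17158 genes in the table. The first group was regenerating discs at 25 h, of the genotype the labels call regeneration, and the second was discs of the control genotype at 15 h, kept alongside without induced death. The labels name no allele, driver or inducing agent for either genotype and do not state how old the larvae were. Poly(A) RNA was sequenced, with 40 discs per library and 2 libraries per group, and the same design was followed at 0 h and 15 h for regenerating discs and at 0 h and 25 h for control discs.

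The deposited values are FPKM, fragments scaled by transcript length and by library size, in 1 column per group that is described as merged replicates. The column of control discs at 0 h carries fewer decimals than the others, and whether it merges 2 libraries in the same way is unknown. No spread between replicates could be computed from 1 column per group, no test was possible, and every difference rests on 1 pair of columns. Differences are given as log2 of (FPKM + 1) in regenerating discs at 25 h over (FPKM + 1) in control discs at 15 h, a scale that understates the change of genes with low values. A gene was called higher or lower when this ratio was at least 1 in size, a difference of 2 times, and the gene reached 1 FPKM in at least 1 of the 2 columns. Read depth is unknown, since the table holds no counts.

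Imaginal discs are the larval epithelia that form the adult appendages, and the wing disc gives rise to the wing, its hinge and the back of the thorax. A damaged disc regrows from its surviving cells, and Jun kinase (JNK) signalling, the growth regulator Yorkie and secreted signals are known to act in this regrowth. Damaged discs also release the relaxin-like peptide Ilp8, which holds back ecdysone production, so that the larva pupariates late and the disc gains time to regrow. Ecdysone, the steroid hormone of moulting, ends disc growth and starts differentiation through its receptor and a cascade of early transcription factors.

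Across the 8032 members that could be called, 516 genes were higher in regenerating discs at 25 h than in control discs at 15 h and 246 were lower, which is 6.42% and 3.06% of the genes measured and 9.49% together. The other 7270 lay within the rule. The median log2 ratio was 0.23, and a 95% order-statistic interval for this median was 0.22 to 0.25. The interval treats genes of the same libraries as independent draws and does not cover the spread between libraries. The middle 50% of genes lay between -0.17 and 0.58. Of all calls, 67.7% were higher. After the columns had been scaled by the median of ratios, which lowered the median by 0.21, there were 234 higher genes (2.92%) and 428 lower ones (5.34%), so that 35.3% of calls were higher. The direction of the excess thus depends on the scaling, and list medians are read here against the median of all genes. List counts are likewise to be read against the shares of all genes that were higher or lower.

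**Figure D1:**
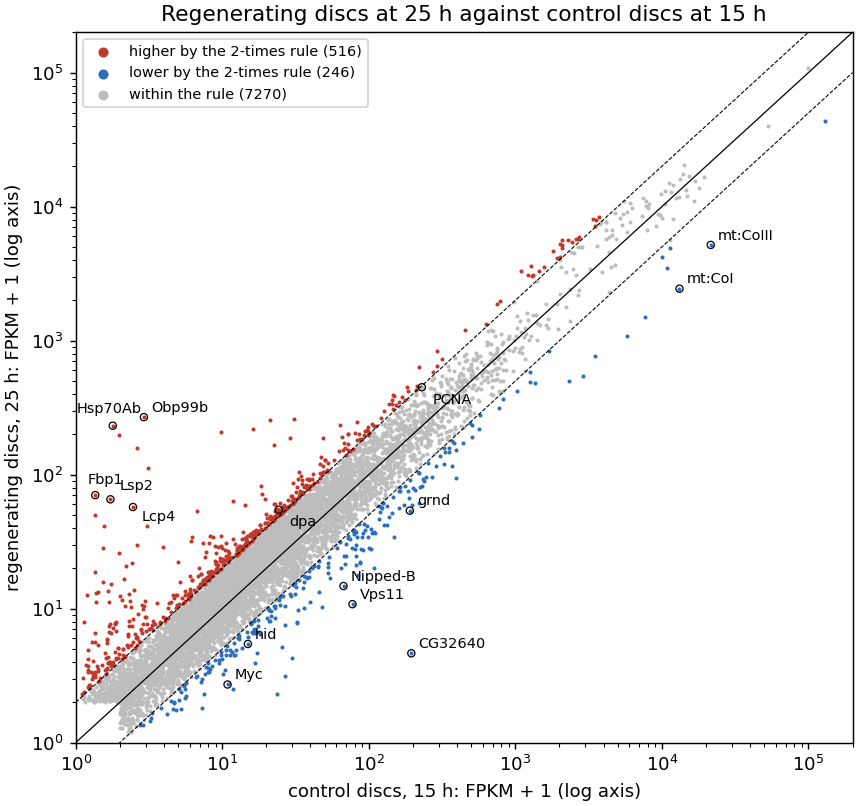
FPKM + 1 of each gene in regenerating discs at 25 h (vertical log axis) against control discs at 15 h (horizontal log axis) for the 8032 genes measured; the solid line marks equal values, the dashed lines a difference of 2 times, and named genes are ringed. The 516 higher genes (red) include fat body genes, Lcp4 and Hsp70Ab far above the line, and the 246 lower ones (blue) include the mitochondrial genes mt:CoI and mt:CoIII at the upper right and CG32640 far below it; after median-of-ratios scaling the counts are 234 and 428.

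The wing disc identity of both columns was checked with 11 epithelial markers, among them nubbin (nub), vestigial (vg) and engrailed (en). All 11 were measured, none passed the rule, and their median log2 ratio was -0.08 against 0.23 over all genes. Their summed FPKM was 211, 308 and 211 in regenerating discs at 0 h, 15 h and 25 h, against 166, 243 and 276 in control discs at 0 h, 15 h and 25 h. nub had 31.7 FPKM in regenerating discs at 25 h and 31.1 FPKM in control discs at 15 h. Of the markers of salivary gland and neurons only 1 each was measured, whereas 10 of 12 fat body markers in the table were.

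Whether the younger control was the closer match was examined over the 7541 genes above 0 in all 6 columns, after each pair of columns had been centred on its own median log2 ratio. Between 7412 and 7448 of them reached 1 FPKM in a given pair. Set against control discs of 0 h, 15 h and 25 h, regenerating discs of 25 h differed at least 2 times in 458, 573 and 340 genes, which is 6.18%, 7.69% and 4.57% of those measured. The median absolute centred log2 ratio was 0.28 against 0 h, 0.37 against 15 h and 0.28 against 25 h, and Spearman rho across genes was 0.966, 0.947 and 0.965. By these measures control discs of 15 h stood farther from regenerating discs of 25 h than the other controls did. This order holds only for genes above 0 in all 6 columns. Control discs of 25 h had the fewest genes above 0, 7696 against 9350 at 15 h. Genes at 0 there but present in regenerating discs were not counted. Regenerating discs of 25 h shared 7603 genes above 0 with control discs of 25 h and 8735 with those of 15 h. Without centring the order differed, with 798 higher and 93 lower genes against 0 h, 405 and 228 against 15 h, and 118 and 194 against 25 h, and the control of 25 h again had the fewest. These are descriptions across genes, and all 3 share the regenerating column. Whether the 0 h control column merges 2 libraries as the others do is unknown.

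Other pairs of columns give a measure of how large such distances were. Control discs of 25 h differed at least 2 times from control discs of 15 h in 39 genes after centring (0.524%), so the 2 candidate controls lay much nearer to each other than to regenerating discs of 25 h. Regenerating discs of 25 h differed from regenerating discs of 0 h in 313 genes (4.21%) and from those of 15 h in 158 (2.13%). Regenerating discs of 15 h differed from control discs of 15 h in 262 genes (3.52%) and from control discs of 25 h in 145 (1.95%). Regenerating discs at 0 h in turn differed from control discs of 15 h in 276 genes (3.7%) and from control discs of 25 h in 178 (2.39%). All 3 regenerating columns therefore had more genes past the rule against the control of 15 h than against the control of 25 h.

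**Figure D2:**
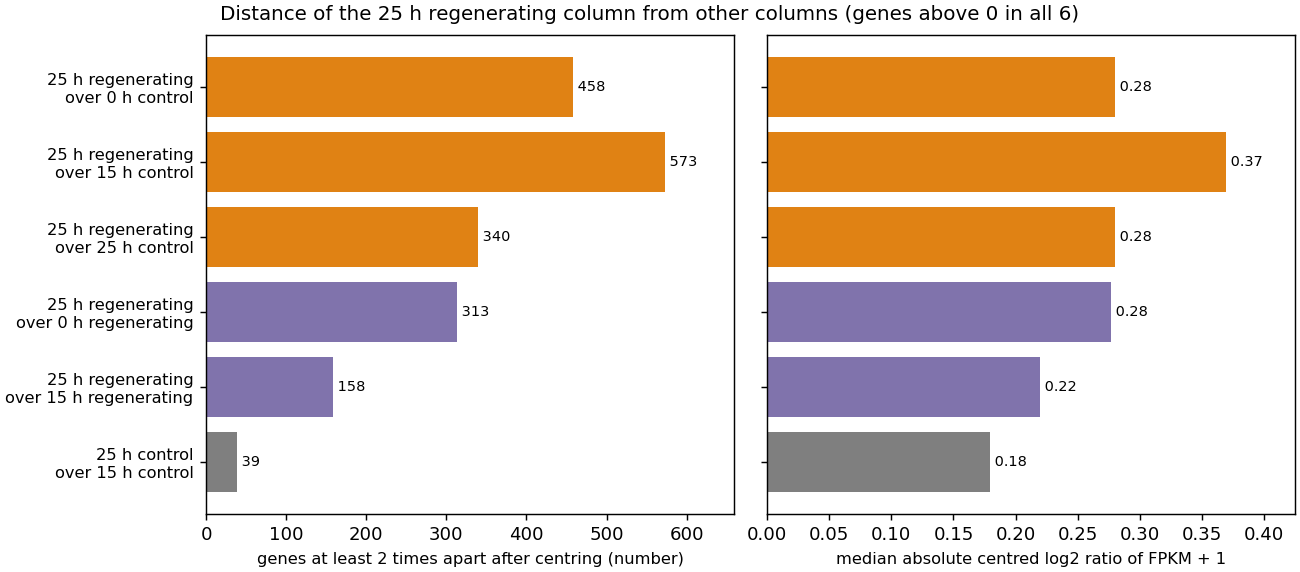
Number of genes at least 2 times apart after centring (left) and median absolute centred log2 ratio (right) for regenerating discs at 25 h over each control column (orange), over earlier regenerating columns (purple), and for control discs at 25 h over control discs at 15 h (grey). The bar for the 15 h control is the longest of the 3 controls in both panels, at 573 genes and 0.37, and the grey bar is the shortest, at 39 genes and 0.18.

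Genes that differ between control discs of 25 h and of 0 h were examined next, and they were chosen from columns that the comparison does not use. In control discs 503 genes were higher at 25 h than at 0 h (6.73%) and 42 were lower (0.562%). Of the 503, 485 were measured in regenerating discs at 25 h over control discs at 15 h, where 22 were higher and 58 were lower, or 4.54% and 11.96%, and their median log2 ratio was -0.25. Over all genes the same shares were 6.42% and 3.06% and the median 0.23. Of the 42 genes lower in control discs of 25 h than of 0 h, 39 were measured, 11 were higher and 7 were lower, with a median of 0.12. By the rule of 2 times, the genes higher in control discs of 25 h than of 0 h were thus more often lower than all genes were, and had a lower median. The set rests on control discs of 0 h, whose values carry fewer decimals than the other columns, and after median-of-ratios scaling the sets change to 33 measured genes that rose, 6 higher and 8 lower, and 300 that fell, 21 higher and 30 lower. With a rule of 1.5 times to choose and call genes, the median of those that rose was 0.074 rather than -0.25, and with 4 times it was 0.57.

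Of 21 genes of the ecdysone response measured, none was higher and 2 were lower. The lower share was 9.52%, against 3.06% of all genes, and it rests on 2 genes. In either direction 9.49% of all genes were past the rule. The list median log2 ratio was -0.32 against 0.23 over all genes. After median-of-ratios scaling none was higher and 3 were lower, with a median of -0.52, where 5.34% of all genes were lower. EcR, which encodes the ecdysone receptor, had 9.27, 17.3 and 7.04 FPKM in regenerating discs at 0 h, 15 h and 25 h, against 6.24, 12.7 and 13.3 FPKM in control discs, and its log2 ratio of -0.77 lay within the rule. Eip75B, an early nuclear receptor of the cascade, had 9.37, 11.5 and 5.26 FPKM in regenerating discs and 4.71, 12.1 and 8.06 FPKM in control discs at the same 3 times, with a log2 ratio of -1.06. In regenerating discs both genes had their highest value at 15 h and their lowest at 25 h. Hr39, another nuclear receptor, reached 12.7, 23.2 and 7.09 FPKM in regenerating discs and 8.28, 20.2 and 15.00 FPKM in control discs, with a log2 ratio of -1.39. The transcription factors Eip74EF, Hr4, ftz-f1 and Kr-h1, which act downstream of ecdysone or juvenile hormone, had log2 ratios of -0.31, -0.78, -0.30 and -0.42 and lay within the rule. Against control discs of 25 h in place of 15 h, where 1.63% of all genes were higher and 2.8% lower, the list had no gene past the rule and a median of -0.12. Against those of 0 h, where 11.9% were higher and 1.47% lower, it had 1 higher gene and a median of 0.32.

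Of 7 temporal factors of larval and pupal stages, ken, a BTB zinc finger repressor, was higher and Syp, an RNA-binding protein known as a temporal factor in neural stem cells, was lower. Each is 14.3% of the list, against 6.42% higher and 3.06% lower of all genes. ken had 9.5, 9.5 and 10.5 FPKM in regenerating discs at 0 h, 15 h and 25 h, against 3.84, 4.57 and 6.93 FPKM in control discs. Its log2 ratio of 1.05 was not past the rule after scaling. Regenerating over control discs at 0 h already gave 1.11 for ken, so its difference was present from 0 h on. Syp had 33.1 FPKM in regenerating discs of 25 h, against 88.6 FPKM in control discs of 15 h, a log2 ratio of -1.39. The median of the 7 was -0.42. chinmo, the transcription factor that marks early larval identity, stayed under 1 FPKM in both columns, at 0.83 FPKM in regenerating discs of 25 h and 0.55 FPKM in control discs of 15 h. Eip93F, which specifies adult identity in the same series of factors, was listed at 0 in all 6 columns, and broad was not analysed here.

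Of 26 genes of damage and JNK signalling measured, none was higher and 2 were lower. The lower share was 7.69%, against 3.06% of all genes, and 9.49% of all genes were past the rule in either direction. The median log2 ratio was 0.01, or -0.21 after median-of-ratios scaling. After that scaling 2 were lower, where 5.34% of all genes were. hid, which encodes an antagonist of the inhibitor of apoptosis Diap1, had 9.61, 11.2 and 4.45 FPKM in regenerating discs at 0 h, 15 h and 25 h, against 9.78, 13.97 and 15.5 FPKM in control discs, and a log2 ratio of -1.46. grnd, which encodes the TNF receptor Grindelwald (2L:18485417-18488021), had 144, 86.7 and 52.8 FPKM in regenerating discs and 96.4, 189 and 156 FPKM in control discs, and a log2 ratio of -1.82. For both genes the value at 25 h was the lowest of the 3 in regenerating discs and also lower than in any control column. rpr, a further death activator, stood out at 0 h alone, with 108, 21.3 and 15.2 FPKM in regenerating discs and 11.5, 24.6 and 29.5 FPKM in control discs over the 3 times, and its log2 ratio of -0.66 in the comparison lay within the rule. The JNK phosphatase puc, the metalloproteinase Mmp1, the second TNF receptor wgn and the stress gene Gadd45 had ratios of -0.11, -0.30, 0.09 and 0.02. egr, the TNF ligand, was at 4.88 FPKM in regenerating discs of 25 h and 2.49 FPKM in control discs of 15 h, within the rule at 0.75.

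Ilp8, the gene of the delaying peptide, lies outside the members because it was listed at 0 in all 3 control columns. In regenerating discs it had 1.55, 6.27 and 6.40 FPKM at 0 h, 15 h and 25 h, so it was present in every regenerating column and no lower at 25 h than at 15 h. Ets21C, a JNK-responsive transcription factor, was under 1 FPKM in both columns, at 0.485 FPKM in regenerating discs of 25 h and 0.11 FPKM in control discs of 15 h. Of 14 apoptosis genes measured only hid passed the rule, a lower share of 7.14% against 3.06% of all genes, and their median log2 ratio was -0.02.

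None of 18 wing pouch genes, 11 hinge genes, 13 notum genes, 16 Dpp pathway genes or 13 Hedgehog pathway genes passed the rule in the values as deposited. Of all genes 9.49% did. Each list, of 11 to 18 genes, is too short for such a count to set it apart from all genes. After median-of-ratios scaling 3 hinge genes, zfh2, grn and Doc2, and the Hedgehog effector ci were lower, while the pouch, notum and Dpp lists had no gene past the rule. Their median log2 ratios were -0.16, 0.09, 0.48, -0.07 and 0.11, and after median-of-ratios scaling the notum median of 0.27 was the only one above 0. vg, the selector of wing identity, had 19.5, 34.97 and 19.1 FPKM in regenerating discs at 0 h, 15 h and 25 h, against 16.3, 21.4 and 26.2 FPKM in control discs, and a log2 ratio of -0.16. The notum genes toe and eyg, which encode paired-domain transcription factors, had ratios of 0.92, the highest of that list, and 0.65. toe was at 5.30, 9.98 and 7.54 FPKM in regenerating discs and 3, 3.51 and 5.99 FPKM in control discs at the same times. The notum median lay above that of all genes and the pouch median below it, and with 1 column per group this could not be set against the spread between libraries.

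In the other signalling pathways the share of genes past the rule is to be read against the 9.49% of all genes. It was 16.7% in the EGFR list, 4.76% in the Wingless list, 9.52% in the Notch list and 11.8% in the Hippo list, on 1 to 3 genes each. In the EGFR list of 18 genes the intramembrane protease rho, the feedback inhibitor sty and the MAP kinase rl were lower, with log2 ratios of -1.07, -1.01 and -1.30, and the list median was -0.33. None was higher, so its 16.7% is a lower share, against 3.06% of all genes. aos, a secreted EGFR inhibitor, was at -0.63 and within the rule. In the Wingless list of 21 genes pan, the TCF transcription factor, was lower at -1.43, and the median was -0.17. In the Notch list of 21 genes the metalloprotease kuz was lower at -1.12 and the target E(spl)mgamma-HLH higher at 1.08, with a median of -0.19. After median-of-ratios scaling the Notch list had no higher gene and 5 lower ones, kuz, the receptor gene N, its coactivator mam and the targets E(spl)m3-HLH and E(spl)m6-BFM. Of 17 Hippo pathway genes the coactivator yki was higher at 1.03 and the target Myc lower, with a median of 0.03 that became -0.18 after scaling, when yki was no longer past the rule. rl lies near the centromere of arm 2R and pan on chromosome 4, where many genes were lower, as described with the chromosomes. grnd and Hr39, named above, lie within 6 Mb of the centromere end of 2L, where 5.80% of genes were lower, against 3.06% of all genes. The sensory organ list of 12 genes had a median of -0.19 and 2 lower members, or 16.7% against 3.06% of all genes. One was ac, the proneural gene achaete, with 98.01, 42.5 and 23.9 FPKM in regenerating discs at 0 h, 15 h and 25 h, against 24.8, 66.4 and 71.2 FPKM in control discs, and a log2 ratio of -1.44. In regenerating discs ac was lower at each later time, whereas it was higher at 15 h and 25 h than at 0 h in control discs. The other was elav, an RNA-binding protein of neurons and the 1 neuronal marker measured, at 1.5 FPKM in regenerating discs of 25 h, against 4.59 FPKM in control discs of 15 h.

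**Figure D3:**
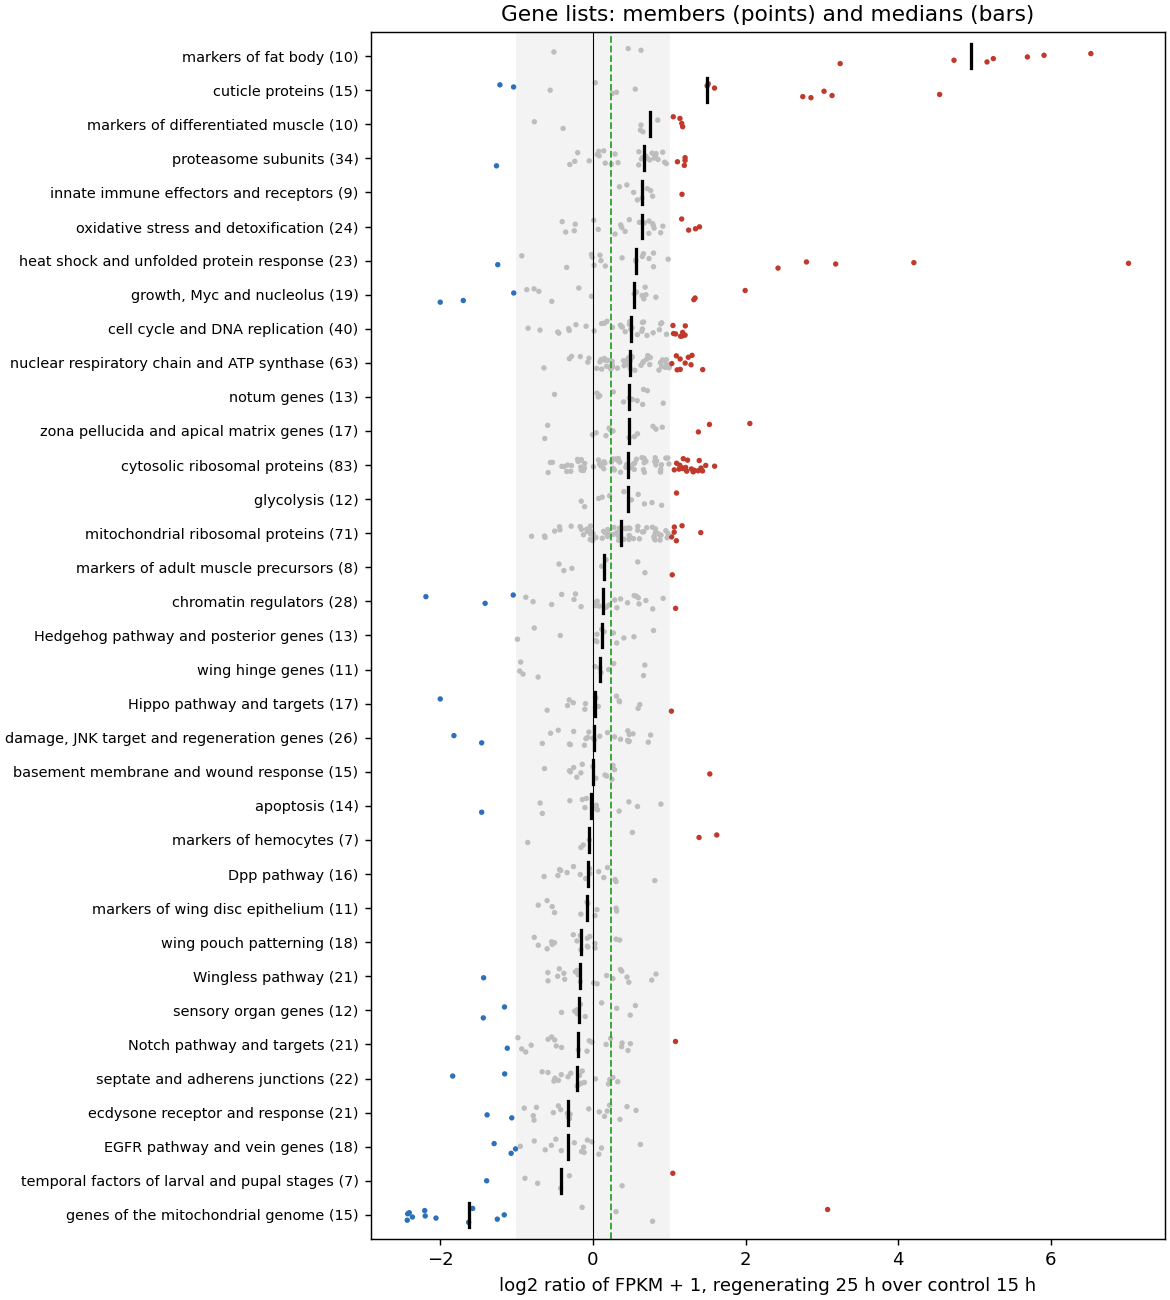
Log2 ratio of FPKM + 1 in regenerating discs at 25 h over control discs at 15 h for the measured members of each gene list (points; number in brackets) with the list median (black bar); the grey band is the range within the rule and the dashed green line the median of all genes at 0.23. Fat body markers (median 4.95) and cuticle proteins (1.5) lie farthest to the right and mitochondrial genome genes (-1.63) farthest to the left, while the medians of the adult muscle precursor, chromatin, Hedgehog, hinge, Hippo and damage lists are above 0 here and below 0 after median-of-ratios scaling.

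Some DNA replication genes were higher in regenerating discs of 25 h than in control discs of 15 h in the values as deposited. Of 40 cell cycle and replication genes, 8 were higher and none lower, with a median log2 ratio of 0.50 against 0.23 over all genes. The higher share was 20%, against 6.42% of all genes. After median-of-ratios scaling none of the 40 was higher and 1 was lower. The 8 were Mcm2, dpa and Mcm6 of the replicative helicase, Orc2 and Orc5 of the origin recognition complex, the licensing factor dup, and aurB and Incenp of the chromosomal passenger complex. dpa, the fly Mcm4, had 35.8, 70 and 53.7 FPKM in regenerating discs at 0 h, 15 h and 25 h, against 19.1, 23.3 and 38.6 FPKM in control discs, and a log2 ratio of 1.17. PCNA, the sliding clamp of DNA polymerase, had 408, 496 and 448 FPKM in regenerating discs and 236, 229 and 365 FPKM in control discs and was within the rule at 0.96. Both genes were higher in control discs of 25 h than in those of 15 h, and against the control of 25 h none of the 40 passed the rule and the list median was 0.02. In that comparison 1.63% of all genes were higher and 2.8% lower, with a median of 0.070, so a count of none is near the share of all genes. The mitotic activator stg and the S phase cyclin CycE had log2 ratios of 0.65 and -0.31.

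Growth genes were divided. Myc, the transcription factor that drives ribosome production and cell growth, had 5.12, 14.8 and 1.72 FPKM in regenerating discs at 0 h, 15 h and 25 h, against 3.05, 9.87 and 7.79 FPKM in control discs, and a log2 ratio of -2.0. Its value in regenerating discs of 25 h was the lowest of the 6 columns, below the 9.87 FPKM of control discs at 15 h. Mnt, the partner of Max that opposes Myc, was also lower at -1.70, as was the RNA polymerase I factor Tif-IA at -1.04. The translation inhibitor Thor had 14.4, 19.8 and 33.5 FPKM in regenerating discs and 8.77, 7.66 and 11.5 FPKM in control discs, and a log2 ratio of 1.99. Thor is a known target of the starvation-responsive factor foxo, itself within the rule at -0.71. The nucleolar proteins Fib and nop5 were higher at 1.32 and 1.34. The 19 genes of this list thus gave 3 higher and 3 lower calls with a median of 0.54. Each count is 15.8% of the list, against 6.42% higher and 3.06% lower of all genes.

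Of 83 cytosolic ribosomal protein genes, 19 were higher and none lower, with a median of 0.46. The higher share was 22.9%, against 6.42% of all genes. After scaling 10 were higher, where 2.92% of all genes were. RpL4 (3R:27922821-27924888) had 1951, 2298 and 3321 FPKM in regenerating discs at 0 h, 15 h and 25 h and 1377, 1099.8 and 1606 FPKM in control discs, and a log2 ratio of 1.59, the largest of the list. The regenerating columns were above the control column of the same time at all 3 times for this gene. The summed FPKM of the list did not follow RpL4 at 0 h and 15 h. It was 700402.4, 611048.2 and 753341.5 in regenerating discs, against 711069.9, 637817.7 and 606963.5 in control discs. Mitochondrial ribosomal proteins gave 6 higher and no lower genes among 71, median 0.36. The higher share of 8.45% was near the 6.42% of all genes, and after scaling 1 was higher and 1 lower. Proteasome subunits gave 4 higher and 1 lower among 34, median 0.67, and after scaling none was higher and 1 was lower. As deposited 11.8% were higher and 2.94% lower, against 6.42% and 3.06% of all genes. The lower one was Prosalpha1, with 33.5 FPKM in regenerating discs of 25 h, against 81.8 FPKM in control discs of 15 h, and the highest log2 ratio of the list was 1.21. Glycolysis had 1 higher gene of 12, pyruvate kinase (PyK), which was not past the rule after scaling, and a median of 0.45. Its higher share of 8.33% was near the 6.42% of all genes. Against control discs of 25 h the ribosomal list had a median of 0.49 with 3 higher genes of 80, where 1.63% of all genes were higher and the median of all genes was 0.070.

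Genes that detoxify reactive oxygen and electrophiles had a list median of 0.64, with 4 of 24 higher and none lower. The higher share was 16.7%, against 6.42% of all genes. GstD1, an abundant glutathione transferase, had 2959.8, 3250.2 and 3099 FPKM in regenerating discs at 0 h, 15 h and 25 h, against 1291, 1221 and 1440.2 FPKM in control discs, and a log2 ratio of 1.34. Each regenerating value of GstD1 was more than any control value, so the ratio at 25 h over 15 h matched a difference present from 0 h on. GstD9, the peroxiredoxin Prx3 and the thioredoxin reductase Trxr1 were higher at 1.40, 1.25 and 1.16, of which Trxr1 was not past the rule after scaling. The immune list had PGRP-LC, a receptor of the Imd pathway, higher at 1.17 among 9 measured genes, median 0.64, and no gene past the rule after scaling. That 1 gene is 11.1% of the list, against 6.42% of all genes.

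Fat body genes were among those with the largest ratios. Of 10 fat body markers measured 7 were higher and none lower, and their median log2 ratio was 4.95. The higher share was 70%, against 6.42% of all genes. The summed FPKM of all 12 markers in the table was 549, 212 and 787 in regenerating discs at 0 h, 15 h and 25 h, against 533, 89.6 and 121 in control discs. The control column at 15 h had the lowest sum of the 6 and the regenerating column at 25 h the highest. Fewer cells of a type and less RNA per cell cannot be told apart in bulk samples. Fat body is a separate larval tissue that stores nutrients and lies beside the discs, and its marker Lip3 was listed at 0 in all 6 columns, whereas apolpp had 0.76 FPKM in regenerating discs of 25 h and was listed at 0 in control discs of 15 h.

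Obp99b (3R:29716254-29716896), of the odorant-binding protein family, had 191, 47.5 and 267 FPKM in regenerating discs at 0 h, 15 h and 25 h, against 150.2, 1.92 and 20.8 FPKM in control discs, and a log2 ratio of 6.52. Lsp2 (3L:12129393-12131869), a larval storage protein, had 56.1, 13.3 and 64.4 FPKM in regenerating discs and 11.6, 0.725 and 5.58 FPKM in control discs, and a log2 ratio of 5.24. Fbp1 (3L:14094589-14098053), the receptor through which fat body takes up storage proteins, had 11.1, 8.11 and 69.3 FPKM in regenerating discs and 10.7, 0.36 and 2.85 FPKM in control discs, and a log2 ratio of 5.69. All 3 genes were lowest in control discs at 15 h and highest in regenerating discs at 25 h, with both 0 h columns in between. The storage proteins Lsp1alpha, Lsp1beta and Lsp1gamma and the fat body protein Fbp2 were higher at 3.24, 5.16, 4.73 and 5.91. Obp99a, Mtp and Sdr lay within the rule at -0.51, 0.63 and 0.46. With control discs of 25 h in place of 15 h the list still gave 7 higher genes of 10, at a median of 3.33, where 1.63% of all genes were higher. With control discs of 0 h it gave 5 higher genes and 1 lower, at a median of 1.17, where 11.9% of all genes were higher and 1.47% lower.

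The heat shock genes Hsp70Ab, Hsp70Bb, Hsp70Bc, Hsp68 and Hsp22 were likewise lowest in control discs of 15 h. Of 23 heat shock and unfolded protein genes these 5 were higher in regenerating discs of 25 h and Hsp67Bc was lower, with a list median of 0.56. The higher share was 21.7% and the lower share 4.35%, against 6.42% and 3.06% of all genes. Hsp70Ab (3R:11958535-11960909) had 57.6, 34.8 and 231 FPKM in regenerating discs at 0 h, 15 h and 25 h, against 164, 0.79 and 66.6 FPKM in control discs, and its log2 ratio of 7.02 was the largest of all measured genes. Hsp70 copies are nearly identical in sequence, so how reads were divided among them is uncertain. Hsp68 (3R:24055080-24057310), which is a single gene, had 14.7, 5.89 and 21.1 FPKM in regenerating discs and 32.95, 1.44 and 19.02 FPKM in control discs, and a log2 ratio of 3.18. For both, control discs of 15 h held the lowest of the 6 values, and control discs of 0 h a value above that of regenerating discs of 0 h. Other chaperones did not follow, and Hsc70-4 with 0.99, Hsp83 with 0.56 and DnaJ-1 with -0.01 lay within the rule. Summed fat body markers and inducible Hsp70 were thus both lowest in control discs of 15 h, and their part in each other's values was not tested.

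Of 60 cuticle protein genes in the table only 18 were above 0 in both columns and 15 were measured, of which 8 were higher and 2 lower, with a median of 1.5. These shares were 53.3% and 13.3%, against 6.42% and 3.06% of all genes. The higher ones were the larval cuticle proteins Lcp1, Lcp2, Lcp3 and Lcp4 and Cpr47Ee, Cpr49Ah, Cpr64Aa and Cpr97Eb, and the lower ones Cpr51A and Cpr66D. Lcp4 had 10.5, 3.27 and 56.3 FPKM in regenerating discs at 0 h, 15 h and 25 h, against 14.7, 1.46 and 0 FPKM in control discs, and a log2 ratio of 4.54. Control discs of 25 h were listed at 0 for 7 of the 15 measured genes, among them 6 of the 8 higher ones, Lcp1, Lcp2, Lcp3, Lcp4, Cpr47Ee and Cpr97Eb, so no ratio is given for these against that control. The 9 cuticle genes that could be measured against it do not include them, and 2 of the 9 were higher and 1 was lower. Against that control 1.63% of all genes were higher and 2.8% lower. Of 17 apical matrix genes the chitinase Cht7 and the chitin-binding obst-B and obst-E were higher and none was lower, median 0.47. Their share of the list was 17.6%, against 6.42% of all genes. SPARC, a collagen-binding matrix protein, was the only one of 15 basement membrane genes past the rule, at 1.53, and that list's median was -0.00. Its higher share of 6.67% was near the 6.42% of all genes.

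Markers of further cell types had list medians nearer 0 than the fat body list. Of 7 hemocyte genes PPO1 and PPO2, the prophenoloxidases of crystal cells, were higher at 1.39 and 1.62, with a list median of -0.05. The higher share of 28.6% rests on 2 genes, against 6.42% of all genes. The plasmatocyte markers Hml and srp were under 1 FPKM in both columns. Summed hemocyte FPKM was 22.6, 27.4 and 31.6 in regenerating discs at 0 h, 15 h and 25 h, against 19.7, 25.6 and 21.9 in control discs. Of 10 differentiated muscle genes Tm2, up, Mlc2 and Mp20 were higher, with a median of 0.75, and none was called after scaling. As deposited the higher share was 40%, against 6.42% of all genes. Of 8 markers of adult muscle precursors twi alone was higher, at 1.04, or 12.5% of the list. The median of 0.14 became -0.06 after scaling, when twi was not past the rule. None of 4 tracheal genes passed the rule, with a median of 0.57, and the single salivary gland gene measured was within the rule at 0.91.

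**Figure D4:**
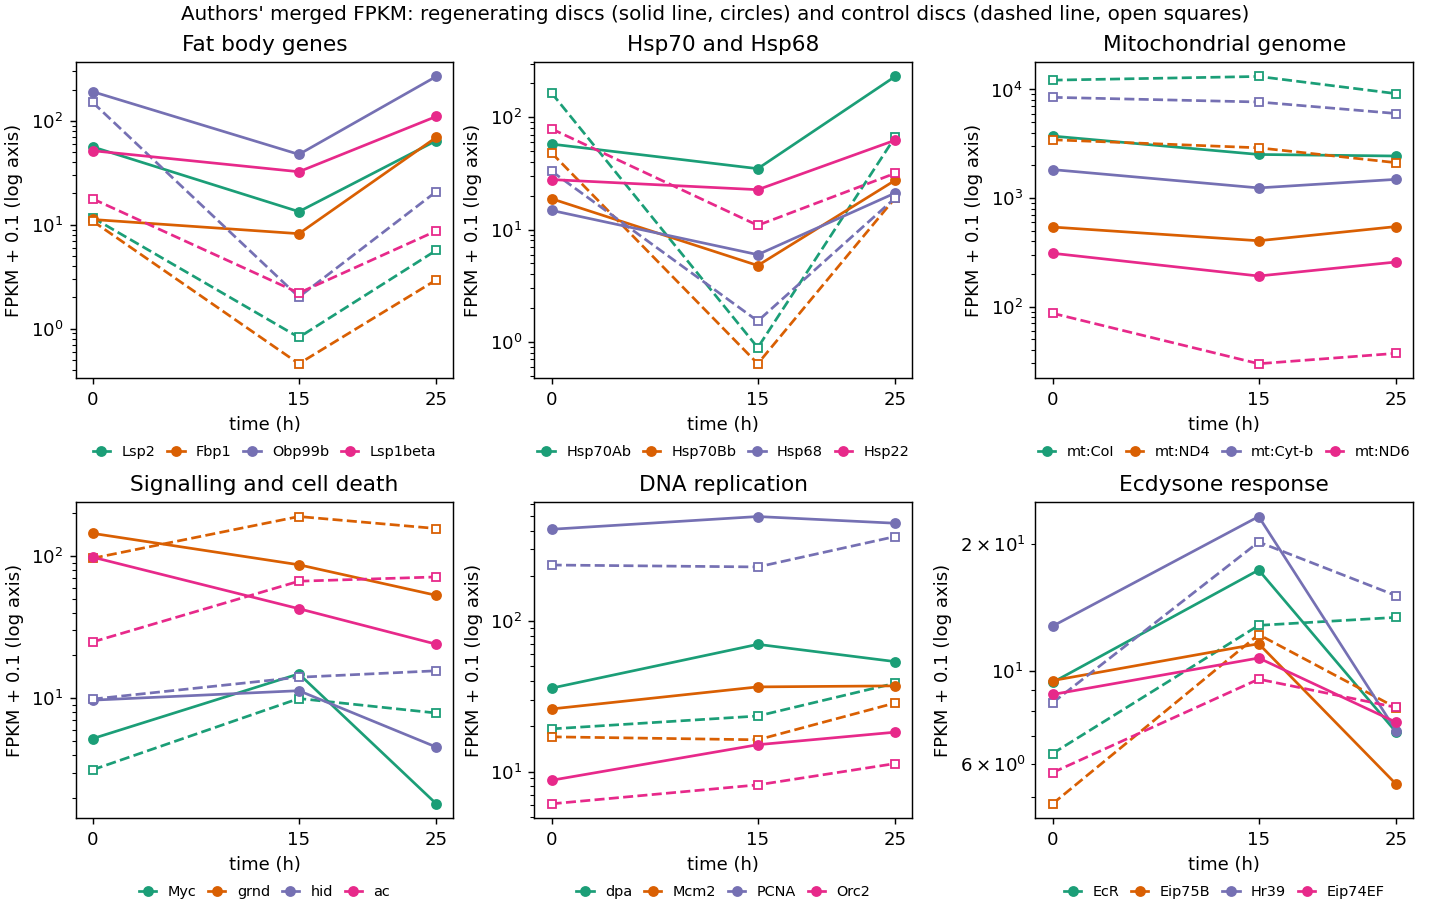
FPKM + 0.1 on log axes at 0 h, 15 h and 25 h in regenerating discs (solid lines, filled circles) and control discs (dashed lines, open squares) for 4 genes of each of 6 groups. In the first panels the fat body and Hsp70 genes dip to their lowest in control discs at 15 h, the mitochondrial genes mt:CoI, mt:ND4 and mt:Cyt-b are lower and mt:ND6 is higher in regenerating discs at every time, and Myc, grnd, hid and ac are at their lowest in regenerating discs at 25 h.

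Most measured transcripts of the mitochondrial genome were lower in regenerating discs. That genome has 37 genes in the deposited file, of which 15 were measured, 11 lower and 1 higher, and the median log2 ratio was -1.63. These shares were 73.3% and 6.67%, against 3.06% and 6.42% of all genes. mt:CoI, a core subunit of cytochrome oxidase, had 3723, 2520.0 and 2439 FPKM in regenerating discs at 0 h, 15 h and 25 h, against 12183, 13179.9 and 9152 FPKM in control discs, and a log2 ratio of -2.43. mt:ND4, of complex I, had 541, 404 and 546 FPKM in regenerating discs and 3443, 2902 and 2117 FPKM in control discs, and a log2 ratio of -2.41. mt:Cyt-b, of complex III, had 1829, 1240.1 and 1487 FPKM in regenerating discs and 8465, 7669.6 and 6008 FPKM in control discs, and a log2 ratio of -2.37. For these 3 genes each regenerating value was below each control value. mt:ND6, which the annotation places beside mt:Cyt-b, went the other way with 310.1, 191 and 258 FPKM in regenerating discs, 86.8, 29.7 and 37.1 FPKM in control discs and a log2 ratio of 3.07. Nuclear genes of the respiratory chain did not share the lower level, with 10 of 63 higher, none lower and a median of 0.49. The higher share was 15.9%, against 6.42% of all genes. After median-of-ratios scaling 4 were higher and none lower, with a median of 0.26, where 2.92% of all genes were higher. With control discs of 25 h or 0 h as the control the mitochondrial medians were -1.46 and -2.22.

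Some of the largest ratios belonged to genes that differed between regenerating and control discs at every time. Genotype and induced death cannot be told apart in them. CG32640 (X:13178005-13178523) had 4.36, 16.02 and 3.64 FPKM in regenerating discs at 0 h, 15 h and 25 h, against 117, 194 and 165 FPKM in control discs, and the lowest log2 ratio of all genes, -5.39. Its neighbour CG32641 (X:13184478-13184996), annotated with the same exonic length of 466 bases, had 249, 297 and 245 FPKM in regenerating discs and 47.7, 82.3 and 91.2 FPKM in control discs, and a log2 ratio of 1.56. The pair went in opposite directions, and since reads may be shared between such copies each value is uncertain. hpRNA:CR33940, a hairpin RNA gene of arm 3L, had 168, 178 and 218 FPKM in regenerating discs and 20.6, 15.3 and 15.1 FPKM in control discs, and a log2 ratio of 3.75. asRNA:CR45822, an antisense RNA, had 1, 1.43 and 1.32 FPKM in regenerating discs and 20.7, 22.8 and 16.9 FPKM in control discs, and a log2 ratio of -3.36. Both kept their side at all 3 times. CG13258 and CG14915 were lower in the same way, at -3.08 and -2.29.

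How much of the comparison was already present at the start was measured with regenerating over control discs at 0 h, which shares no column with it. The control column at 0 h carries fewer decimals than the others, and whether it merges 2 libraries is unknown. Of 7740 genes measured in both, 497 were higher at 0 h (6.42%) and 61 lower (0.788%). Among the genes higher in regenerating discs of 25 h than in control discs of 15 h, 478 were measured at 0 h, of which 89 were higher there as well, 18.6% of this list and 17.9% of the 0 h list, and 11 were lower (2.30%). Among the lower genes 235 were measured at 0 h, of which 31 were lower, 13.2% of this list and 50.8% of the 0 h list, and 28 were higher (11.9%). In both lists the shares in the same direction and in the opposite direction were above those of all genes. Most genes past the rule were not past it at 0 h. After median-of-ratios scaling 40 of 208 higher genes and 60 of 414 lower genes were past the rule in the same direction at 0 h, 19.2% and 14.5%, against 1.37% and 2.48% of all genes.

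The position of the 2 columns among all 6 was also counted. Of the 516 higher genes, regenerating discs of 25 h had the highest of the 6 values in 396, or 76.7%, against 23.8% of all genes measured. In 257 of the 516, or 49.8%, control discs of 15 h had the lowest of the 6 values, against 12.7% of all genes. Of the 246 lower genes, regenerating discs of 25 h had the lowest value in 155, or 63.0%, against 7.46% of all genes. Control discs of 15 h had the highest value in 140, or 56.9%, against 9.70% of all genes. The rule itself favours extreme columns, so these shares describe the lists and test nothing.

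Genes of chromosome 4, the small and mostly heterochromatic chromosome, were lower as a group. Of 68 measured, none was higher and 22 were lower, or 32.4% against 3.06% of all genes, and 61 of 68 ratios were below 0. The median log2 ratio was -0.72. Ephrin (4:571755-580122), the ligand of the Eph receptor, had 36.6, 38.9 and 9.37 FPKM in regenerating discs at 0 h, 15 h and 25 h, against 13.2, 46.8 and 42.5 FPKM in control discs, and a log2 ratio of -2.20. Pur-alpha (4:558016-567257), a nucleic acid binding protein, had 74.3, 60.8 and 32.97 FPKM in regenerating discs and 74.7, 148 and 101 FPKM in control discs, and a log2 ratio of -2.13. pho (4:1172469-1181628), a DNA-binding Polycomb group protein, had 138, 111 and 88.1 FPKM in regenerating discs and 145, 236 and 165 FPKM in control discs, and a log2 ratio of -1.41. For these genes control discs of 15 h held the highest and regenerating discs of 25 h the lowest of the 6 values. Within the rule on the same chromosome were the Hedgehog effector ci at -0.99, the ribosomal protein RpS3A at 0.26 and ATPsynbeta at 0.05. In columns that the comparison does not use, regenerating over control discs at 0 h, the median of the chromosome 4 genes was 0.24, against 0.46 over the rest of the chromosome arms. This gap at 0 h varied with length. It was 0.486 against 0.492 in genes over 3000 bases and 0.16 against 0.48 in genes of 1000 to 3000 bases. Regenerating over control discs gave -0.20 against 0.35 at 15 h and -0.53 against 0.11 at 25 h, each sharing 1 column with the comparison.

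Genes within 6 Mb of the centromere end of an arm, a window set after the values had been seen, were examined in the same way. On 2R 20 of 64 were lower and 2 higher, with a median of -0.60. On 3L 8 of 73 were lower, median -0.10, and on 2L 16 of 276, median 0.12. The lower genes of 2L included grnd of the damage list, Hr39 of the ecdysone list and Tif-IA of the growth list. Those of 3L included vtd of the chromatin list. On 3R and X 2 of 164 and 3 of 255 were lower, with medians of 0.25 and 0.33, close to the 0.25 of the rest of the arms, where 162 of 6949 genes were lower (2.33%). The fixed window held 64 measured genes on 2R and 276 on 2L, so it does not cover like stretches of each arm. Differences between arms cannot be read from it alone. Nipped-B (2R:4691672-4729017), the loader of cohesin onto chromosomes, had 39.9, 38.2 and 13.7 FPKM in regenerating discs at 0 h, 15 h and 25 h, against 18.9, 66.2 and 57.2 FPKM in control discs, and a log2 ratio of -2.19. Vps11 (3L:23147656-23150499), a subunit of the HOPS tethering complex of late endosomes, had 23.6, 20.6 and 9.79 FPKM in regenerating discs and 29.6, 76.4 and 57.1 FPKM in control discs, and a log2 ratio of -2.84. Both were highest in control discs at 15 h and lowest in regenerating discs at 25 h. Of 28 chromatin regulators Nipped-B, pho and the cohesin subunit vtd were lower and esc, of Polycomb complex 2, was higher, though not after scaling. The lower share was 10.7% and the higher share 3.57%, against 3.06% and 6.42% of all genes. The chromatin median of 0.13 became -0.08 after scaling. Of 22 junction genes p120ctn (2R:4595288-4609492), which binds E-cadherin, and the polarity kinase aPKC were lower at -1.84 and -1.16, with a median of -0.20. Both junction calls were lower, so the lower share was 9.09%, against 3.06% of all genes. In either direction 9.49% of all genes were past the rule.

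Gene length varied with the ratio. Across 7871 genes with an annotated exonic length Spearman rho between length and ratio was -0.16, a description over genes that share their libraries. In the shortest of 10 equal groups of genes, of 157 to 811 bases, 10.5% were higher and 3.80% lower. In the longest group, of 5637 to 71820 bases, 1 gene was higher (0.127%) and 45 were lower (5.72%), and the median log2 ratio was -0.25. The median was largest, 0.43, in genes of 1699 to 2043 bases. The lists followed length only in part. Of 26 lists with a median exonic length above the 2043 bases of all genes, 16 had a median log2 ratio below that of all genes, and of 10 shorter lists 4 did. The ecdysone list was long at 6264 bases with a median log2 ratio of -0.32, and the ribosomal list short at 927 bases with 0.46. The notum list was long at 3892 bases with 0.48, and the Notch and mitochondrial genome lists short at 1305 and 789 bases with -0.19 and -1.63. The part of length in the list medians was not tested. On chromosome 4 the lower level was also seen at fixed length, with a median of -0.40 in 20 genes of 1000 to 3000 bases, against 0.38 in the rest of the arms, and of -0.83 in 41 genes over 3000 bases, against 0.06.

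**Figure D5:**
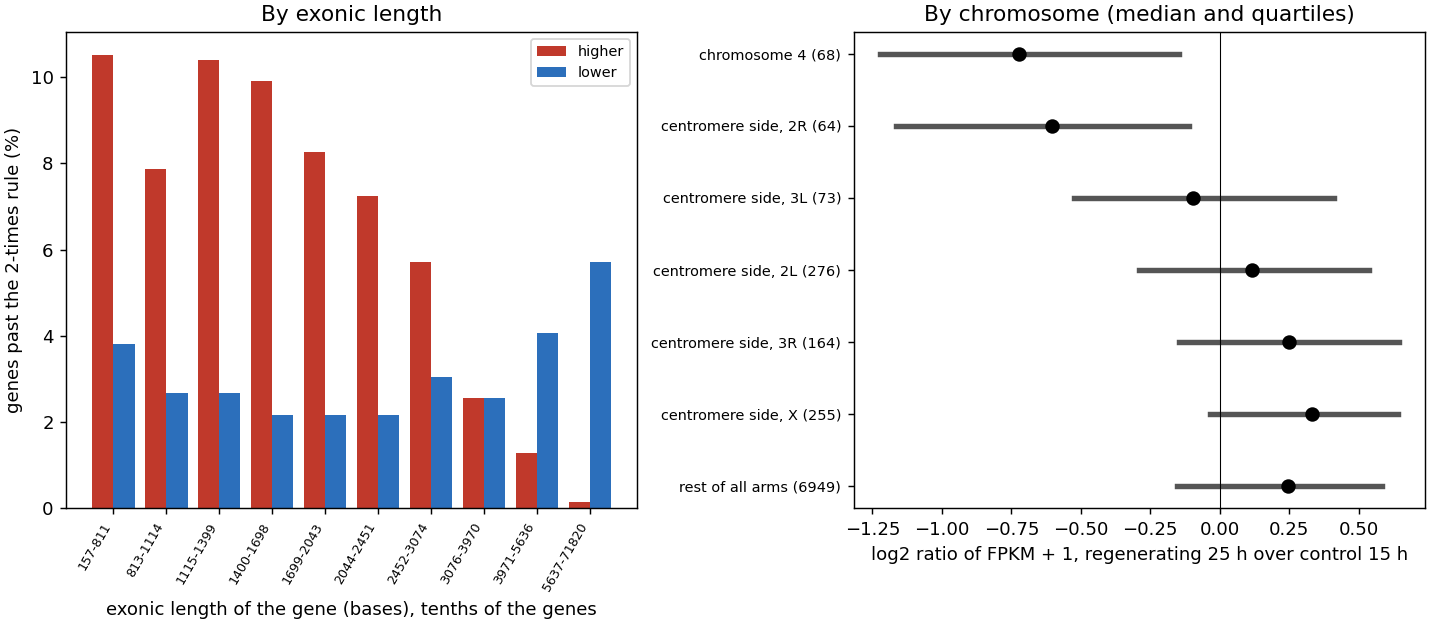
Left, percentage of genes higher (red) and lower (blue) in regenerating discs at 25 h than in control discs at 15 h in 10 equal groups of exonic length; right, median log2 ratio of FPKM + 1 (points) with quartiles (bars) for chromosome 4, the centromere side of each arm and the rest of the arms, with gene numbers in brackets. In the longest genes the share of higher genes is smallest, at 0.127%, and the share of lower genes largest, at 5.72%, and chromosome 4 (-0.72) and the centromere side of 2R (-0.60) lie left of the rest of the arms (0.25).

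Genes just outside the members are those above 0 in only 1 of the 2 columns. There were 339 above 0 in regenerating discs of 25 h alone, with a median of 0.495 FPKM, and 615 above 0 in control discs of 15 h alone, with a median of 0.305 FPKM, while the lowest value of a member was 0.095 FPKM. Of the 339, 110 reached 1 FPKM and 35 reached 5 FPKM. Among them were Hsp70Bbb with 34.1 FPKM, the larval cuticle gene Lcp65Ab1 with 26.6 FPKM, the drosomycin-like gene Drsl5 with 23.8 FPKM and the stress-induced secreted factor TotA with 21.1 FPKM in regenerating discs of 25 h. These 4 were chosen after their values had been seen. Of the 615, 80 reached 1 FPKM and 8 reached 5 FPKM, led by the cytochrome P450 gene Cyp4p2, listed at 0 in regenerating discs of 25 h and at 70.5 FPKM in control discs of 15 h. No fold is given for them, since 1 column is listed at 0. The neighbouring values of Cyp4p2 were 13.4 and 1.98 FPKM in regenerating discs at 0 h and 15 h, against 54.3 and 35.4 FPKM in control discs at 0 h and 25 h, so it was lower in regenerating discs at every time.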

How the data were processed

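The authors deposited FPKM, 1 column per group merged over 2 libraries, for 17158 FlyBase genes, by a method that is not stated in the labels. Per the submitters' processing notes, STAR 2.4.0j, RSEM and build dm6 were used, without a stated role. Per the labels, RNA was poly(A) selected and libraries were made with an Illumina TruSeq kit. 1 further column belongs to no sample here and was left aside.

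Decimal points are missing from many values of 5 columns. The 19566 whole numbers of at least 1000 that end in 5 were divided by 1000, between 41.8% and 48.4% of the values above 0 of those columns, and this reading was made from the values. The column of control discs at 0 h had no such value, so it may have been rounded or may hold 1 library. Act5C, listed as 2635 in regenerating discs of 25 h, can be read either way and was left out. FPKM summed to between 1247527 and 1504200 per column, between 7465 and 9462 genes were at 0, and median-of-ratios factors were 1.04, 1.23 and 1.10 for regenerating discs at 0 h, 15 h and 25 h and 0.713, 0.935 and 1.06 for control discs. Depth is unknown, so no counting interval is given.

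Genes were called at a ratio of 2 times of FPKM + 1, with values above 0 in both columns and at least 1 FPKM in 1 of them or both. Symbols matched 16912 genes and 246 had none. Coordinates and exonic lengths come from the Ensembl annotation of BDGP6, the assembly dm6. Genes that overlap, lie antisense or have near copies are uncertain. 38 gene lists were counted. The named genes are the 15 highest and 15 lowest ratios among genes of at least 5 FPKM, the 4 largest ratios, or fewer, of each list and 30 fixed genes, of which 29 matched, 170 in all, and others were named after their values had been seen. The members, lists and rules were chosen with earlier results of these data known. The calculation was tested on simulated data. Alternatives were pseudocounts of 0.1 and 5, no filter or one of 5 FPKM, 2 scalings, rules of 1.5 and 4 times, genes at 0 in 1 column included, genes with no restored value, nuclear protein-coding genes and, added later, exonic lengths of 1000 to 3000 bases and the other control columns. Python 3.11.15, numpy 2.4.6, pandas 2.3.3, scipy 1.17.1 and matplotlib 3.10.9 were used.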

Additional observations from a re-analysis of the deposited data

How the results depend on the processing

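No paired analysis was possible because each group has only 1 column, and for the same reason no replicate could be left out. The counts of higher and lower genes, 516 and 246, and the median log2 ratio of 0.23 were recomputed under each alternative, 1 at a time. A pseudocount of 0.1 gave 370 lower genes and a median of 0.26. A pseudocount of 5 gave 214 higher and 139 lower genes and a median of 0.17. The median was 0.21 with no filter, 0.26 with a filter of 5 FPKM and 0.22 with columns of equal sum. Median-of-ratios scaling gave 234 higher and 428 lower genes and a median of 0.021. The rule of 1.5 times gave 1990 and 779, the rule of 4 times 59 and 24, and genes with no restored value 148 and 74. Exonic lengths of 1000 to 3000 bases gave 98 lower genes and a median of 0.37. With control discs of 25 h as the control 122 genes were higher, median 0.070, and with those of 0 h 960 were higher and 118 lower, median 0.56. These 2 were chosen after seeing the data. The likeness counts against control discs of 0 h, 15 h and 25 h were 231, 316 and 184 with a pseudocount of 5 and 10, 19 and 10 with no restored value, and the control of 15 h had the most under each of the 5 alternatives run.

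For the genes that rose from 0 h to 25 h in control discs, the counts higher and lower in regenerating discs of 25 h over control discs of 15 h were 40 and 99 with a pseudocount of 0.1, 4 and 23 with 5 (median -0.40), 6 and 8 with median-of-ratios scaling, and 3 and 12 with no restored value (median -0.18). Columns of equal sum gave a median of -0.12. The median changed sign where the rule that chose the set was 1.5 times, with 476 and 414 genes and 0.074, or 4 times, with 0 and 0 genes and 0.57. For the genes that fell the lower count was 11 with a pseudocount of 0.1, 3 with 5, and 4 among nuclear protein-coding genes. Higher and lower counts were 21 and 30 with median-of-ratios scaling, 36 and 34 with the rule of 1.5 times, and 95 and 58 with genes at 0 included. The median turned to -1.14 with the rule of 4 times (1 and 1) and to -0.52 with no restored value, where 3 were higher. The cause of these changes was not tested. Of the named genes past the rule, 40 of 62 higher and 34 of 34 lower ones stayed past it after median-of-ratios scaling and 47 and 27 with a pseudocount of 5, and none of these changed sign under the alternatives run. Single columns, restored decimals and unknown depth limit every value.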

Other observations

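The non-coding RNAs lncRNA:roX1 and lncRNA:roX2, which act in X chromosome dosage compensation of males, were both lower in regenerating discs of 25 h than in control discs of 15 h. lncRNA:roX1 had 112, 67.98 and 35.7 FPKM in regenerating discs at 0 h, 15 h and 25 h, against 83.5, 109 and 96.7 FPKM in control discs, and a log2 ratio of -1.58. lncRNA:roX2 had 111, 14.1 and 12.4 FPKM in regenerating discs and 282, 44.7 and 39.1 FPKM in control discs, and a log2 ratio of -1.77. Sxl, the switch gene of female sex determination, was lower too, with 60.7, 68.1 and 27.3 FPKM in regenerating discs, 36.8, 99.6 and 77.8 FPKM in control discs and a log2 ratio of -1.83. Regenerating discs of 25 h held the lowest of the 6 values of each of these genes, and control discs of 15 h the highest for Sxl. The 1319 measured genes of the X chromosome had a median log2 ratio of 0.24, against 0.23 over all genes. The 3 genes were chosen after their values had been seen.

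CG34166 (2L:14743193-14743879) had the second highest log2 ratio of all named genes, 6.63, with 54.3, 24.3 and 195 FPKM in regenerating discs at 0 h, 15 h and 25 h, against 40.8, 0.985 and 15.3 FPKM in control discs. Its neighbours CG31775, CG42586 and CG42587 were above 0 in regenerating discs of 25 h, at 15.6, 15.6 and 7.15 FPKM, and listed at 0 in control discs of 15 h. CG31775 and CG42586 have the same value in every column, so their reads may not have been told apart.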
